A study of Mus musculus with 12 samples.

Results

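The genes described here handle itaconate, nitric oxide and arginine in macrophages. They are 6 genes taken by symbol (Acod1, Nos2, Slc7a2, Ass1, Asl and Gch1) out of 40847 rows of the count table, and each symbol matched 1 row. Stranded mRNA libraries were sequenced from mouse fetal liver alveolar-like macrophages (FLAMs), macrophages grown out of fetal liver. Cells of every group, the controls included, were kept in GM-CSF at 30 ng/ml. The 4 groups of 3 libraries were untreated cells, cells given recombinant human TGFβ1 at 20 ng/ml (TGFβ), cells given the TLR2 ligand Pam3CSK4 at 25 ng/ml for 18 h (Pam3), and cells given both agents (Pam3+TGFβ). The labels place TGFβ in the growth medium without a duration, and do not say whether replicates came from separate cultures or derivations, so p-values measure the spread between these samples, which may be technical.

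In activated macrophages arginine feeds several routes. Nitric oxide synthase 2 (Nos2) turns it into nitric oxide and citrulline, with tetrahydrobiopterin as cofactor. The cationic amino acid transporter CAT2 (Slc7a2) brings arginine into the cell, and argininosuccinate synthase (Ass1) followed by argininosuccinate lyase (Asl) rebuilds it from citrulline. GTP cyclohydrolase 1 (Gch1) opens the synthesis of tetrahydrobiopterin. Aconitate decarboxylase 1 (Acod1, also called Irg1) makes itaconate from an intermediate of the mitochondrial citric acid cycle, and itaconate inhibits succinate dehydrogenase.

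The libraries held 34036650 to 44374115 counts. Levels are given in CPM, a gene's counts scaled to the library's TMM-adjusted total, as single libraries or as mean ± SD over 3 libraries. Of 8 macrophage markers none was at 0, and their sum was 17500 to 18500 CPM with TGFβ against 33700 to 37600 CPM in untreated cells, and 26100 to 26700 CPM with Pam3+TGFβ against 36000 to 37200 CPM with Pam3. Most of that sum was Lyz2 (14700 to 15600 CPM with TGFβ against 28300 to 32200 CPM). Itgam (36.6 to 40.2 against 1050 to 1140 CPM), Mrc1 (965 to 978 against 1670 to 1990) and Adgre1 (136 to 158 against 290 to 312) were also lower. So were Cd68 (541 to 557 against 810 to 929 CPM) and Csf1r (809 to 838 against 931 to 1080). Mertk was at 215 to 232 CPM against 216 to 230 CPM, and Fcgr1 was higher (88.8 to 94.9 against 74.2 to 84.6). Of 9 alveolar macrophage markers none was at 0 in all libraries, and their sum was 8240 to 8700 CPM with TGFβ against 6820 to 7590 CPM in untreated cells. They went both ways: Siglecf was at 289 to 307 CPM with TGFβ against 30.1 to 34.3 CPM, and Fabp4 at 0.0741 to 0.166 CPM against 30 to 32.2 CPM. The part of these marker differences in the results below was not tested. Lymphocyte and erythroid markers summed to at most 0.57 CPM in every library, and mast cell and basophil markers to at most 1.32 CPM. Fibroblast and endothelium markers summed to 3.53 to 3.69 CPM with TGFβ against 1.79 to 2.94 CPM in untreated cells. With Pam3+TGFβ they summed to 2.82 to 4.13 CPM against 1.69 to 2.89 CPM with Pam3. This list went both ways at rest. Pecam1 was at 2.35 to 2.62 CPM with TGFβ against 0.578 to 1.25 CPM, and Cdh5 at 0 to 0.0987 CPM against 0.794 to 1.05 CPM. The part of such cells in the results below was not tested. The share of counts from mitochondrially encoded genes was 0.068% to 0.113% in 7 libraries and 0.348% to 0.596% in 5 libraries. The latter were 1 untreated, 2 TGFβ and 2 Pam3 libraries and no Pam3+TGFβ library, so values within these classes are given beside calls they end. Fits within a class have arms of 1 library (TGFβ and Pam3 in the low class, untreated in the high class), which are assumed to vary like the other groups. In bulk RNA, a change in the number of cells that express a gene and a change in RNA per cell cannot be told apart.

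Acod1 (ENSMUSG00000022126; GRCm39 chromosome 14, 103284413 to 103294009, plus strand, 5 exons) moved furthest of the 6 genes. It stood at 6.57, 11.9 and 10.7 CPM in the untreated libraries and at 0.304, 0.642 and 0.655 CPM with TGFβ. With Pam3 it stood at 58.1, 51 and 58 CPM, and in cells with both at 150, 128 and 119 CPM. No group overlapped another, and the order ran from TGFβ through untreated and Pam3 to Pam3+TGFβ. TGFβ alone therefore went with the lowest level and TGFβ with Pam3 with the highest.

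Without TGFβ, Pam3 raised Acod1 by 2.52 on the log2 scale (SE 0.202, edgeR quasi-likelihood adjusted p 1.93e-05), which is 5.73-fold. With TGFβ the same step was 7.93 (SE 0.295, edgeR adjusted p 1.52e-08), which is 244-fold and the 7th highest of 14749 tested genes. Most of that difference lay in the starting level. TGFβ alone lowered Acod1 by 17.9-fold (log2 fold change -4.16, SE 0.332, edgeR adjusted p 3.7e-06), whereas in the presence of Pam3 it raised Acod1 by 2.38-fold (1.25, SE 0.181, edgeR adjusted p 0.000325). The difference between these responses (with TGFβ less without, called the interaction) was 5.41 (SE 0.379, edgeR adjusted p 7.69e-06). In the 7 libraries of low mitochondrial share, where the TGFβ and the Pam3 group have 1 library each, the interaction was 5.05 (edgeR adjusted p 0.0605) and the TGFβ effect with Pam3 was 1.2 (edgeR adjusted p 0.0768), neither of them called. The fall with TGFβ at rest was -3.85 (edgeR adjusted p 0.0228) in that class and -4.43 in the 5 libraries of high mitochondrial share, where the untreated group has 1 library. The antisense lncRNA gene Gm41235 overlaps 247 bases of Acod1 exons and had its own counts, with a mean of 0.119 ± 0.115 CPM in the TGFβ group and 3.28 ± 0.543 CPM in the Pam3+TGFβ group (SD, n = 3). The strand setting of the counting is not given in the sources used here, so reads in the shared stretch cannot be told apart.

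A promoter is the sequence around and just upstream of a transcription start site. RefSeq promoter windows (table build GRCm38.p6, 250 bases before and 50 bases from the start site) were held for 3 of the 6 genes, Acod1, Ass1 and Gch1, and each matched GRCm39 exactly once on its chromosome. Those of Acod1 (chr14:103284198-103284497, plus strand) and Gch1 (chr14:47426821-47427120, minus strand) are shown because these genes reached their highest level in Pam3+TGFβ, without overlap with any other group. Capitals mark matches to 7 short motifs searched on both strands.
Acod1: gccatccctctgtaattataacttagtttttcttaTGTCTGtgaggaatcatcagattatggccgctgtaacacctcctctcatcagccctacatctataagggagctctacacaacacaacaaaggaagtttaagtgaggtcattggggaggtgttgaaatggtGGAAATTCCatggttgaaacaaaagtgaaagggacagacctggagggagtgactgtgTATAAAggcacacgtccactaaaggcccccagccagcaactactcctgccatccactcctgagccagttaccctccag
Gch1: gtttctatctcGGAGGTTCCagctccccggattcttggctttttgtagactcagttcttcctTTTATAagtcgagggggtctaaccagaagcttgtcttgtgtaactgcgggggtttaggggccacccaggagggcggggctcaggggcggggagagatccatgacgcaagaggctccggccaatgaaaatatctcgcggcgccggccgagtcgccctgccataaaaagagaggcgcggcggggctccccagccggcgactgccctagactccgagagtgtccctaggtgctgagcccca

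The longer motifs were GGNNNTTCC (NF-kB type), GAAANNGAA (interferon response type), TTCNNNGAA (STAT type) and TTGCNNAA (C/EBP type). The AP-1 motif was searched as TGANTCA. With positions counted from the start site, the Acod1 window held GGAAATTCC, a palindromic match to the NF-kB type motif, at -85. It also held the TATA motif, searched as TATAAA, at -28. The SMAD type motif, searched as CAGACA, lay on the opposite strand of this window at -215. The Gch1 window held GGAGGTTCC, a match to the NF-kB type motif, at -239 and the TATA motif on the opposite strand at -188. None of these matches overlapped another. The NF-kB type motif occurred in 18.5% of all 32851 windows of this length, the TATA motif in 13.6% and the SMAD type motif in 21.0%. The Ass1 window (chr2:31360032-31360331, plus strand) held none of the 7 motifs, but it lies inside the gene as annotated here, which starts at 31352181, and so is not the sequence upstream of that start. The interferon response type, STAT type, AP-1 and C/EBP type motifs, which occurred in 8.56%, 8.3%, 7.81% and 10.8% of all windows, had no match in these 3 windows. These letter matches are descriptions of the windows and not evidence of binding.

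Nos2 (ENSMUSG00000020826; chromosome 11, 78811613 to 78851080, plus strand, 27 exons) was barely detected. It had 0, 2 and 0 counts in the untreated libraries, 3, 1 and 0 with TGFβ, 0, 2 and 2 with Pam3, and 14, 14 and 8 with Pam3+TGFβ. Its highest level was 0.407 CPM, in a Pam3+TGFβ library, and the Pam3+TGFβ libraries lay above all 9 others. Nos2 was the 1 gene of the 6 that did not pass the count filter. Summed over the libraries, its count rate was 8.35 times higher with Pam3+TGFβ than with Pam3 (95% exact binomial interval of 2.99 to 32.3, counting error only) and 8.91 times higher than with TGFβ (3.19 to 34.5). Without TGFβ replicate 1 the latter ratio was 24.4, without TGFβ replicate 3 it was 5.95, and without Pam3 replicate 1 the former was 5.37. An exact two-sided permutation test over 3 against 3 libraries gave p = 0.1 for both, the smallest this design allows. In the edgeR fit without a filter, over 23757 genes, the adjusted p was 0.083 for the TGFβ effect with Pam3, 0.0818 for the Pam3 response with TGFβ and 0.797 for the interaction, so no change of Nos2 was called. Antisense lncRNA genes overlap 97 bases of Nos2 exons (Gm71838) and 67 bases of Asl exons (Gm73169), and their counts were not used here.

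Gch1 (ENSMUSG00000037580; chromosome 14, 47391346 to 47426915, minus strand), the gene for the first step of cofactor synthesis, was by contrast present in every library. It stood at 31, 41.6 and 34.5 CPM in untreated cells and at 32.1, 35.7 and 31.6 CPM with TGFβ. With Pam3 it stood at 53.7, 52.7 and 53.3 CPM, and in cells with both at 118, 115 and 109 CPM. The untreated and TGFβ libraries overlapped, and each of the other groups lay apart. Pam3 raised Gch1 by 1.49-fold without TGFβ (log2 fold change 0.58, SE 0.0786, edgeR adjusted p 6.96e-06) and by 3.45-fold with it (1.78, SE 0.0793, edgeR adjusted p 4.24e-15).

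The interaction of Gch1 was 1.21 (SE 0.111, edgeR adjusted p 1.36e-08), and 1.12 (edgeR adjusted p 0.00104) in the 7 libraries of low mitochondrial share. TGFβ gave a log2 difference of -0.11 in Gch1 without Pam3 (SE 0.0793, edgeR adjusted p 0.261) and a rise of 1.1 with it (SE 0.0774, edgeR adjusted p 1.88e-11). Without untreated replicate 1 the difference at rest was -0.19 (edgeR adjusted p 0.0417), and without untreated replicate 2 it was 0.02. In the fit of all libraries Gch1 thus had a higher level after both agents and no called difference at rest.

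**Figure D1:**
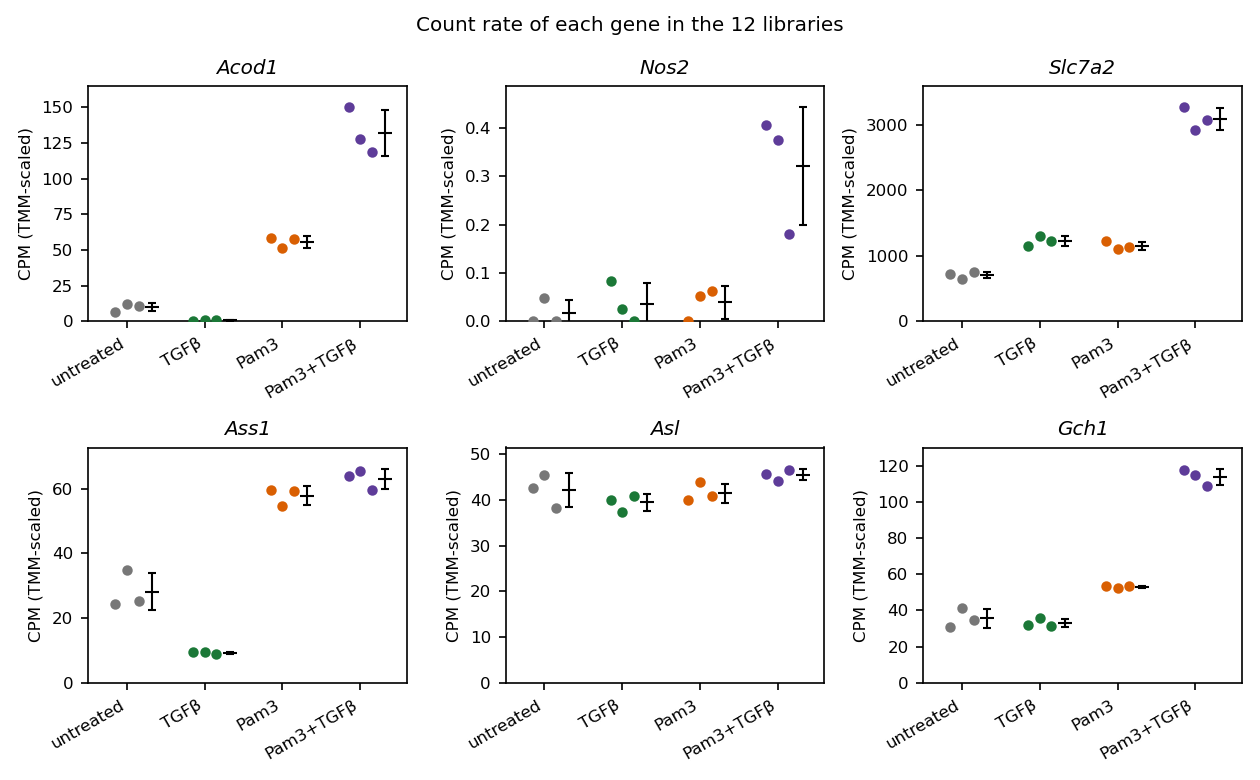
Count rate in CPM (linear axis from 0) of each of the 6 genes in the 12 libraries, 3 points per group, with the mean and SD as a black bar to the right of each group. Acod1, Gch1 and Slc7a2 were highest in the 3 Pam3+TGFβ libraries, Nos2 reached at most 0.407 CPM, and Ass1 was lowest with TGFβ alone.

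The supply of arginine was represented by its transporter and by the enzymes that recycle citrulline. Slc7a2 (ENSMUSG00000031596; chromosome 8, 41315431 to 41375345, plus strand, 12 exons) had the highest level per kilobase of exon of the 6 genes in every group. It had 728, 649 and 745 CPM in the untreated libraries and 1150, 1310 and 1230 CPM in the TGFβ libraries. It had 1220, 1100 and 1140 CPM in the Pam3 libraries and 3270, 2930 and 3080 CPM after both agents. Each agent alone gave a similar level, with overlapping libraries, and both together gave the highest. Per kilobase of exon, its mean level held rank 408 in untreated cells and rank 77 with Pam3+TGFβ among 13486 tested genes with a known length.

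Pam3 raised Slc7a2 by 0.71 on the log2 scale without TGFβ (SE 0.0633, edgeR adjusted p 5.5e-09) and by 1.33 with it (SE 0.064, edgeR adjusted p 5.33e-15). TGFβ raised it by 0.8 without Pam3 (SE 0.0634, edgeR adjusted p 6.38e-11) and by 1.42 with it (SE 0.0642, edgeR adjusted p 1.13e-15). The interaction was 0.62 (SE 0.0891, edgeR adjusted p 1.04e-05), so the joint rise was 1.54 times what the product of the separate changes would give. In the 7 libraries of low mitochondrial share the interaction was 0.42 and not called (edgeR adjusted p 0.0548).

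Ass1 (ENSMUSG00000076441; chromosome 2, 31352181 to 31410862, plus strand, 16 exons) stood at 24.4, 35 and 25.4 CPM in untreated cells and at 9.41, 9.58 and 8.98 CPM with TGFβ. With Pam3 it stood at 59.7, 54.6 and 59.4 CPM, and with Pam3+TGFβ at 64, 65.5 and 59.5 CPM. The TGFβ libraries were the lowest, and the Pam3 and Pam3+TGFβ libraries overlapped. Pam3 raised it 2.05-fold without TGFβ (log2 fold change 1.03, SE 0.0985, edgeR adjusted p 2e-07) and 6.75-fold with TGFβ (2.76, SE 0.108, edgeR adjusted p 4.18e-14).

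TGFβ lowered Ass1 3.03-fold at rest (log2 fold change -1.6, SE 0.107, edgeR adjusted p 1.34e-10). After Pam3 the TGFβ difference was 0.12 (SE 0.0958, edgeR adjusted p 0.329) and was not called. The interaction of 1.72 (SE 0.144, edgeR adjusted p 2.97e-08), which was also 1.72 (edgeR adjusted p 0.000996) in the 7 libraries of low mitochondrial share, came with a lower level at rest and no called difference after Pam3.

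Asl (ENSMUSG00000025533; chromosome 5, 130040099 to 130058088, minus strand, 16 exons) ranged from 37.5 to 46.7 CPM over the 12 libraries. Asl makes arginine in the step after Ass1. Its untreated libraries averaged 42.2 ± 3.63 CPM and the TGFβ libraries 39.5 ± 1.81 CPM, while Pam3 libraries averaged 41.5 ± 2.07 CPM and those with both agents 45.6 ± 1.24 CPM (SD, n = 3). The 1 called change was the Pam3 response with TGFβ, 0.21 on the log2 scale (SE 0.0675, edgeR adjusted p 0.0167). That call was lost without TGFβ replicate 2 (0.15, edgeR adjusted p 0.12), Pam3+TGFβ replicate 1 (0.19, edgeR adjusted p 0.072) or Pam3+TGFβ replicate 3 (0.17, edgeR adjusted p 0.0928), with upper-quartile scaling (0.15, edgeR adjusted p 0.0918) and with the mitochondrial class as a covariate (0.21, edgeR adjusted p 0.0515). Its interaction of 0.23 (edgeR adjusted p 0.116) was called without untreated replicate 3 (0.29, edgeR adjusted p 0.0378).

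Per kilobase of exon, the ratio of Ass1 to Asl averaged 1.19 ± 0.178 over the untreated, 0.422 ± 0.0325 over the TGFβ, 2.49 ± 0.241 over the Pam3 and 2.47 ± 0.186 over the Pam3+TGFβ libraries (SD, n = 3). The TGFβ libraries, at 0.39 to 0.455, lay below all others. With longest annotated transcripts as lengths the mean ratios were 0.918, 0.325, 1.92 and 1.9 in the same order.

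Ass1 and Asl also serve the urea cycle of hepatocytes, the main cells of liver, so markers of hepatocytes and of neutrophils were read beside them. Of 8 hepatocyte markers, Cps1, Otc, Ttr and Tat had no count in any library, and Alb had at most 5 counts. The summed list was 5.8 to 5.87 CPM in untreated cells, 5.83 to 6.25 with TGFβ, 6.4 to 7.7 with Pam3 and 8.4 to 10.2 after both, where Afp alone had 8.4 to 10.1 CPM. Of 8 neutrophil markers, Mpo was at 0, and the sum was 13.9 to 16 CPM in untreated cells, 4.58 to 6.11 with TGFβ, 16.8 to 17.4 with Pam3 and 5.96 to 7.9 with both. The lower sums in both groups given TGFβ came from S100a8, at 12.5 to 15.3 CPM in untreated cells and 2.49 to 3.58 CPM with TGFβ, while S100a9 was at 0.114 to 0.526 CPM and 0.655 to 1.38 CPM. The part of these markers' cells in the levels of Ass1 and Asl was not tested.

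**Figure D2:**
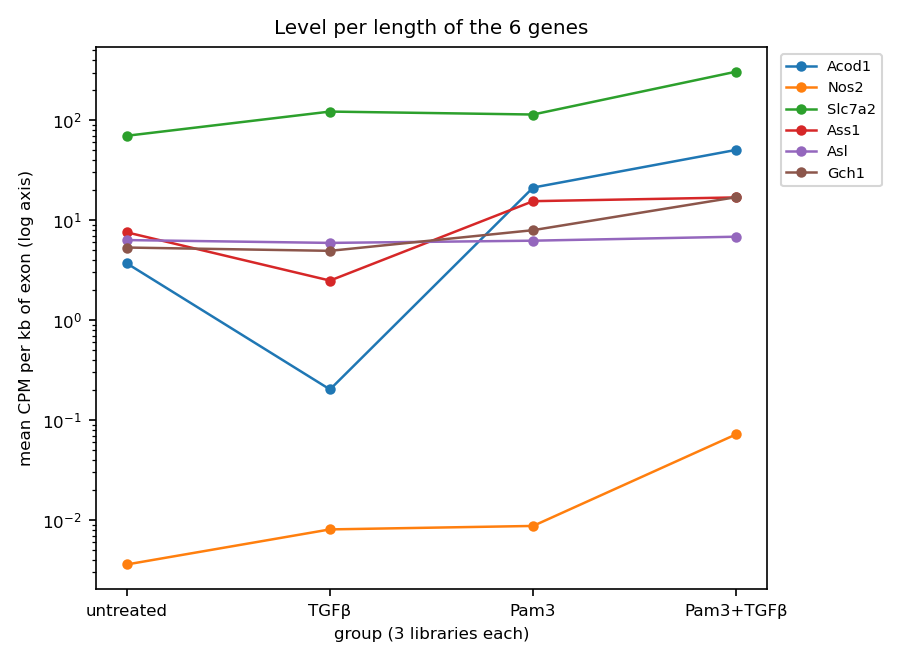
Mean level per kilobase of joined exons (CPM per kb, log axis) of the 6 genes in the 4 groups, where lines only join the means of a gene. Slc7a2 was highest in every group, from 69.9 to 306 CPM per kb, and Acod1 spanned 0.203 CPM per kb (TGFβ) to 50.5 CPM per kb (Pam3+TGFβ).

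Set side by side on this scale of CPM per kilobase of exon, untreated cells held most transcript of Slc7a2 (69.9 ± 5.06). Ass1 (7.56 ± 1.57), Asl (6.33 ± 0.546), Gch1 (5.33 ± 0.806) and Acod1 (3.7 ± 1.06) followed (SD, n = 3). From Ass1 to Acod1 the ranges of mean ± SD of neighbours in the order overlapped. The means of Asl and Gch1, and of Gch1 and Acod1, differed by more than either SD. Nos2 (0.00361 ± 0.00626) was the lowest. With Pam3+TGFβ the order was Slc7a2 (306 ± 16.5), Acod1 (50.5 ± 6.15), Gch1 (17 ± 0.668), Ass1 (16.9 ± 0.841), Asl (6.84 ± 0.187) and Nos2 (0.0723 ± 0.0276). Gch1 and Ass1 lay within their spread of each other there. The untreated order depends on the length used: with longest annotated transcripts the means were 15.8 for Asl, 14.6 for Ass1, 10.2 for Gch1 and 3.7 for Acod1. Among all ranked genes Acod1 was at rank 11626 of 13486 with TGFβ and at rank 640 with Pam3+TGFβ.

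As a group, 4 of the 5 tested members rose with Pam3 in cells without TGFβ and 0 fell, where 18.3% of all 14749 genes were called (9.62% higher and 8.66% lower). The member not called was Asl. With TGFβ present, 5 of 5 rose (4 where the call of Asl was lost, as given above), where 38.5% of all genes were called (20.4% higher and 18.1% lower). TGFβ alone raised 1 member (Slc7a2) and lowered 2 (Acod1 and Ass1), where 51.0% of all genes were called (22.9% higher and 28.1% lower). After Pam3 it raised 3 (Acod1, Slc7a2 and Gch1) and lowered 0, where 45.3% were called (21.5% higher and 23.8% lower). At an unadjusted edgeR p under 0.05, 0 members were lower with Pam3 in either condition or with TGFβ after Pam3, and DESeq2 called 0 lower in each of these. The TGFβ comparisons at rest and after Pam3 each gave a share of called members in either direction (3 of 5) not far from that of all genes.

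Groups of libraries did not overlap for 4 of the 5 tested members in the Pam3 response without TGFβ (31.4% of all genes), for 5 with TGFβ (50.4%), for 3 in the TGFβ effect at rest (56.4%) and for 4 after Pam3 (55.1%). The interaction was called higher for 4 of 5 members (Acod1, Ass1, Gch1 and Slc7a2) and lower for 0, where 15.9% of all genes were called (10.3% higher and 5.67% lower). At an unadjusted edgeR p under 0.05 it was higher for 5 and lower for 0, and DESeq2 called 4 higher and 0 lower. In the 7 libraries of low mitochondrial share it was called for 2 of them, Ass1 and Gch1. The median of the members' log2 fold changes was 0.71 for Pam3 without TGFβ and 1.78 with it, where the medians over all genes were 0 and -0.019. These comparisons share libraries: the untreated group enters both the Pam3 response without TGFβ and the TGFβ effect at rest, and the interaction uses every group.

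**Figure D3:**
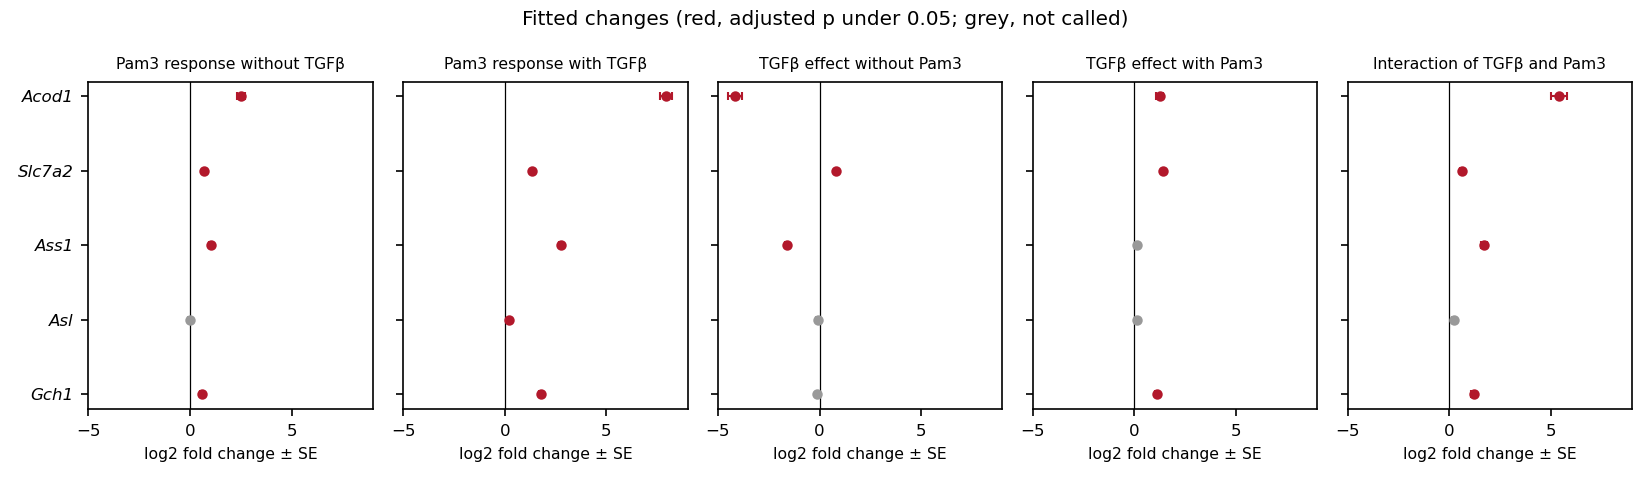
Fitted log2 fold change ± SE of the 5 tested genes in the 5 contrasts, with red points called at an adjusted p under 0.05 and grey points not called. Acod1 spans the widest range, from -4.16 with TGFβ alone to 7.93 with Pam3 in the presence of TGFβ, while Asl stays near 0.

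**Figure D4:**
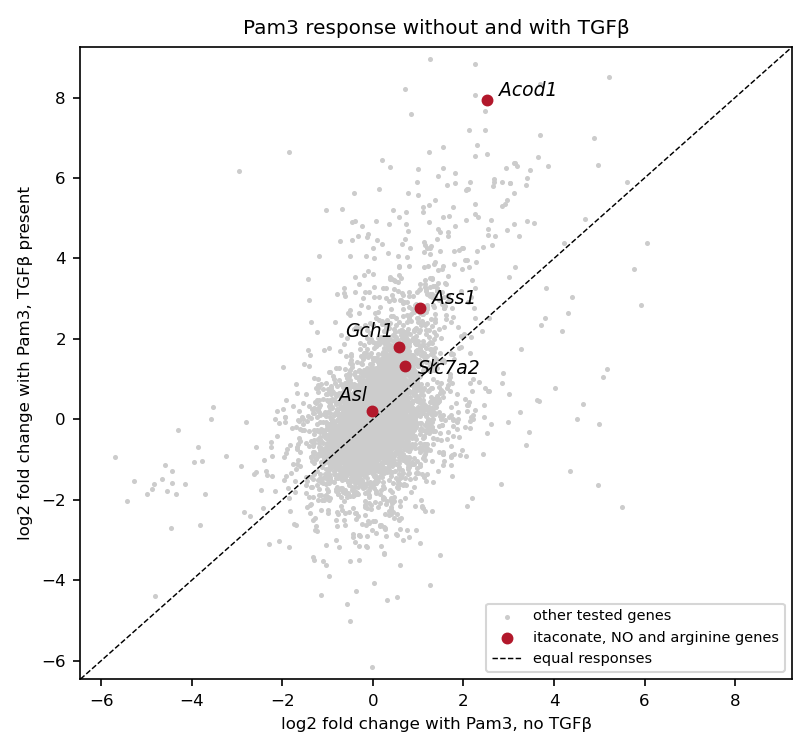
Log2 fold change with Pam3 in cells without TGFβ (x axis) and with TGFβ (y axis) for the 14749 tested genes in grey and the 5 tested members in red, with a dashed line at equal responses. The members lie above the line, Acod1 furthest (2.52 and 7.93) and Asl nearest to it (-0.02 and 0.21).

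The other genes of these pathways were taken as 5 lists of 53 genes in all, of which 40 passed the filter. Across them, Pam3 without TGFβ raised 4 and lowered 6 (9.62% and 8.66% of all genes), and with TGFβ it raised 6 and lowered 6 (20.4% and 18.1%). TGFβ raised 8 and lowered 14 at rest (22.9% and 28.1% of all genes), and raised 11 and lowered 12 after Pam3 (21.5% and 23.8%). The interaction was called higher for 2 and lower for 2 (10.3% and 5.67%). In the 7 libraries of low mitochondrial share (the low class, beside a high class of 5), which are fewer samples, 2, 6 and 1 of the 40 were called for Pam3 without TGFβ, Pam3 with TGFβ and the interaction. The median log2 fold change of the 40 genes pooled lay between -0.12 and 0.04 in the 5 contrasts, beside medians over all genes of -0.019 to 0.005. Single lists lay further out, with 0.53 for arginine transport with TGFβ after Pam3, where 4 of 4 were called higher, and -0.23 for the mitochondrial neighbours with TGFβ at rest.

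Among 4 tested genes of other arginine transport, Slc3a2, the shared heavy chain of several amino acid transporters, was also highest after both agents. Slc3a2 averaged 191 ± 23.3 CPM over the untreated, 191 ± 4.59 over the TGFβ, 331 ± 21 over the Pam3 and 577 ± 32.3 over the Pam3+TGFβ libraries (SD, n = 3). Its interaction was 0.8 (SE 0.0971, edgeR adjusted p 6.46e-06). Slc3a2 was the 1 gene of the 4 with a called interaction, where 15.9% of all genes were called. Pam3 raised 3 of the 4 without TGFβ and 2 with it (9.62% and 20.4% of all genes). TGFβ raised 2 at rest and 4 after Pam3 (22.9% and 21.5%). By edgeR and DESeq2, 0 of the 4 were called lower in these contrasts. Slc7a7, a light chain that exports arginine, rose with TGFβ by 1.17 at rest (SE 0.0781, edgeR adjusted p 2.41e-12) and by 0.97 after Pam3 (SE 0.0778, edgeR adjusted p 8.76e-11). Slc7a1, the constitutive transporter CAT1, rose by 0.35 with Pam3 in the presence of TGFβ (SE 0.0611, edgeR adjusted p 5.65e-05), from 108 ± 8 to 138 ± 5.88 CPM (SD, n = 3). Without TGFβ it rose by 0.2 with Pam3 (edgeR adjusted p 0.0224), and was called in neither the low nor the high class. Slc7a6 rose by 0.27 with Pam3 without TGFβ (edgeR adjusted p 0.00496; 0.24 and edgeR adjusted p 0.2 in the low class) and by 0.42 with TGFβ at rest (edgeR adjusted p 8.08e-06).

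Of 5 tested tetrahydrobiopterin genes other than Gch1, 0 rose with Pam3 in either condition, by edgeR (also 0 at an unadjusted p under 0.05) and by DESeq2, where 9.62% of all genes rose without TGFβ and 20.4% with it. Pam3 lowered 1 of them without TGFβ and 2 with it (8.66% and 18.1% of all genes). TGFβ at rest raised 1 of the 5 and lowered 0 (22.9% and 28.1% of all genes), with 2 lower at an unadjusted edgeR p under 0.05. The gene raised was Pts (0.36, edgeR adjusted p 0.000346), which was at 0.28 and not called in the low class. Pts, the second enzyme of tetrahydrobiopterin synthesis, fell with Pam3 by 0.23 without TGFβ (edgeR adjusted p 0.0455) and by 0.46 with it (edgeR adjusted p 3.26e-05). The first of these calls was lost without untreated replicate 1 or 2 or any Pam3 library (-0.24 to -0.17, edgeR adjusted p 0.0506 to 0.208), in the low (-0.29, edgeR adjusted p 0.194) and high (-0.12, edgeR adjusted p 0.615) classes, and with the class as a covariate (-0.22, edgeR adjusted p 0.069). Qdpr, which regenerates the cofactor, fell by 0.17 with Pam3 in the presence of TGFβ (edgeR adjusted p 0.00566) and by 0.12 with TGFβ after Pam3 (edgeR adjusted p 0.0443). In the low class neither was called (-0.13 and edgeR adjusted p 0.245; -0.16 and edgeR adjusted p 0.119), and the latter was also lost without Pam3 replicate 1 or 2 or any Pam3+TGFβ library (-0.13 to -0.09, edgeR adjusted p 0.0554 to 0.201). The interaction was called for 0 of the 5 by edgeR and DESeq2 (15.9% of all genes by edgeR), with 1 lower at an unadjusted edgeR p under 0.05. Of 7 other nitric oxide genes 1 passed the filter, Ddah2 at 0.922 to 1.16 CPM in group means, and it was called in 0 of the 5 contrasts by edgeR and DESeq2, as also at an unadjusted edgeR p under 0.05. The other nitric oxide synthases, Nos1 and Nos3, averaged at most 0.165 CPM.

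Of 18 tested genes of ornithine, polyamine and urea cycle metabolism, 1 rose and 2 fell with Pam3 without TGFβ (0 and 2 by DESeq2), where 9.62% and 8.66% of all genes did, and 3 rose and 3 fell with TGFβ present, near the 20.4% and 18.1% of all genes. Odc1, which makes putrescine from ornithine, fell with Pam3 by 0.31 without TGFβ (SE 0.0698, edgeR adjusted p 0.00212), from 50 ± 3.97 to 40.4 ± 2.2 CPM (SD, n = 3), and was not called in the low (-0.32, edgeR adjusted p 0.0874) or high (-0.2, edgeR adjusted p 0.223) mitochondrial class. With TGFβ present Odc1 fell by 0.4 with Pam3 (edgeR adjusted p 4.32e-05), for which class values are not given here. Sat1, which acetylates polyamines, was lowered by each agent. It fell by 0.41 with Pam3 alone (edgeR adjusted p 3.81e-06) and by 0.72 with Pam3 in the presence of TGFβ (edgeR adjusted p 5.6e-11). With TGFβ it fell by 0.45 at rest (edgeR adjusted p 1.7e-07) and by 0.76 after Pam3 (edgeR adjusted p 1.6e-11). Its interaction was -0.32 (edgeR adjusted p 0.00525) and was not called in the low class. TGFβ raised 4 and lowered 5 of the 18 at rest (22.9% and 28.1% of all genes), and raised 6 and lowered 5 after Pam3 (21.5% and 23.8%). Oat, the ornithine aminotransferase, fell with TGFβ at rest by 0.83 (SE 0.0584, edgeR adjusted p 5.9e-12), and Gatm, which uses arginine for creatine, by 0.82 (SE 0.109, edgeR adjusted p 5.94e-07). After Pam3 the falls with TGFβ were 0.7 for Oat (edgeR adjusted p 2.14e-10) and 0.82 for Gatm (edgeR adjusted p 8.16e-07). The interaction was called higher for 1 and lower for 2 of the 18 (10.3% and 5.67% of all genes), with Sat1 among the latter. Aldh18a1, of proline synthesis, rose with TGFβ at rest by 0.72 (edgeR adjusted p 8.28e-11). Its Pam3 response was lower with TGFβ (interaction -0.36, edgeR adjusted p 0.00246), and that of Smox, a spermine oxidase, was higher (0.36, edgeR adjusted p 0.00658). In the low class neither interaction was called (-0.28, edgeR adjusted p 0.293, and 0.43, edgeR adjusted p 0.108), nor was that of Smox with the class as a covariate (0.31, edgeR adjusted p 0.0665). Otc and Cps1, the urea cycle enzymes of liver, had no count in any library.

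Among the mitochondrial neighbours of itaconate, TGFβ at rest lowered 9 of 12 tested genes and raised 1 (28.1% and 22.9% of all genes), and after Pam3 it lowered 6 and raised 1 (23.8% and 21.5%). Pam3 lowered 3 without TGFβ (8.66% of all genes), Clybl, Sdhd and Sdha (-0.15, edgeR adjusted p 0.0123), none of them called within either class. With TGFβ it lowered 1 and raised 1 (18.1% and 20.4%), the latter being the citrate synthase gene Cs (0.2, edgeR adjusted p 0.000784; 0.22 and edgeR adjusted p 0.0584 in the low class). Clybl, which degrades a breakdown product of itaconate, fell by 1.68 at rest (SE 0.149, edgeR adjusted p 5.03e-10), from 9.14 ± 0.591 to 2.84 ± 0.149 CPM (SD, n = 3), and by 1.55 after Pam3 (SE 0.154, edgeR adjusted p 4.96e-09). It also fell with Pam3 alone, by 0.42 (edgeR adjusted p 0.0367), a call lost without untreated replicate 1 or 2 or any Pam3 library (-0.45 to -0.36, edgeR adjusted p 0.0576 to 0.145) and in the low (-0.43, edgeR adjusted p 0.328) and high (-0.34, edgeR adjusted p 0.388) classes and with the class as a covariate (-0.4, edgeR adjusted p 0.0661). Slc25a1, the mitochondrial citrate carrier, was the gene that rose, by 0.73 at rest (SE 0.06, edgeR adjusted p 1.55e-10) and by 0.54 after Pam3 (SE 0.0599, edgeR adjusted p 4.04e-08). The 4 succinate dehydrogenase genes were called lower with TGFβ in both conditions, with log2 fold changes of -0.25 (Sdha), -0.33 (Sdhb), -0.29 (Sdhc) and -0.41 (Sdhd) at rest. Within a class, Sdhc at rest was not called in the high class (-0.16, edgeR adjusted p 0.106), nor Sdha after Pam3 in the low class (-0.15, edgeR adjusted p 0.148).

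The interaction was called for 0 of the 12 by edgeR and DESeq2 (15.9% of all genes by edgeR), with 1 higher and 1 lower at an unadjusted edgeR p under 0.05. Sdhd, a membrane subunit of succinate dehydrogenase, fell with Pam3 by 0.17 without TGFβ (SE 0.0555, edgeR adjusted p 0.0385). That call was lost without untreated replicate 2 or Pam3 replicate 3 (-0.11 to -0.1, edgeR adjusted p 0.161 to 0.241) and in the low (-0.15, edgeR adjusted p 0.367) and high (-0.12, edgeR adjusted p 0.424) classes and with the class as a covariate (-0.13, edgeR adjusted p 0.107). Slc13a3, a dicarboxylate transporter, was called lower with Pam3 in the presence of TGFβ (log2 fold change -2.02, SE 0.568, edgeR adjusted p 0.00594), from 0.866 ± 0.157 to 0.208 ± 0.13 CPM (SD, n = 3), and was not called in the low class (-1.69, edgeR adjusted p 0.151).

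**Figure D5:**
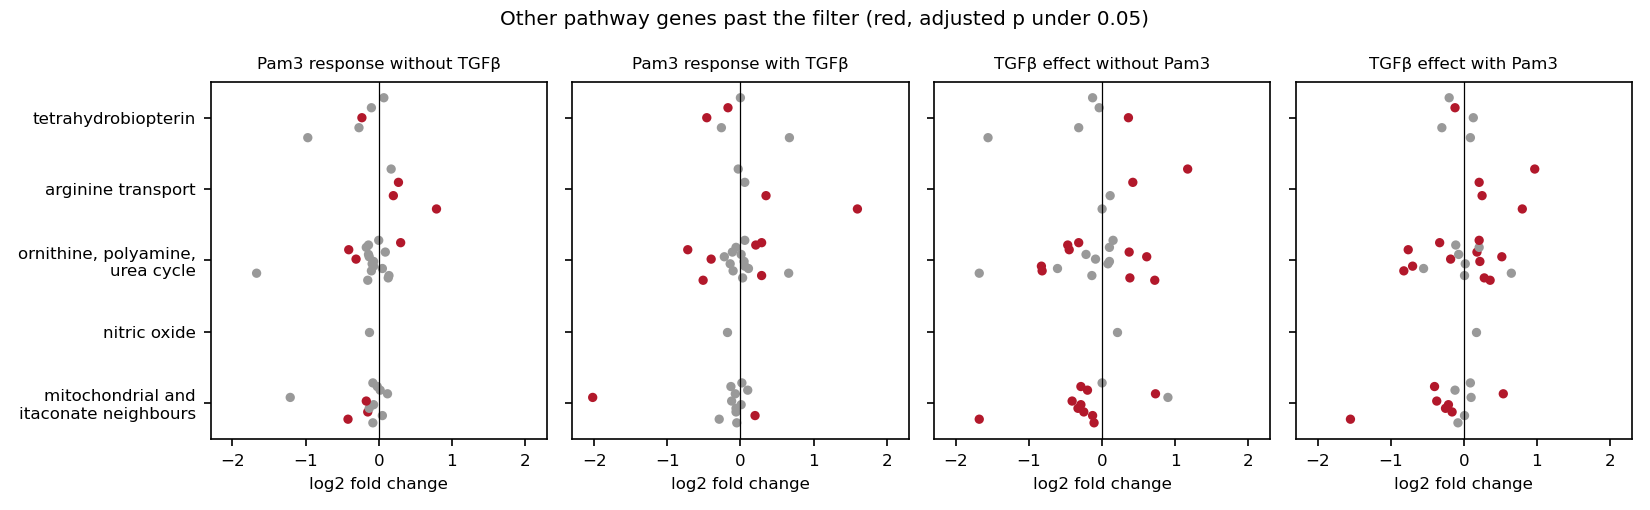
Log2 fold change of the 40 tested pathway genes other than the members, in 5 lists, for the Pam3 response without and with TGFβ and the TGFβ effect without and with Pam3, 1 point per gene with red points called at an adjusted p under 0.05. The mitochondrial neighbours are mostly left of 0 with TGFβ (9 of 12 lower at rest), and Slc3a2 is the rightmost point of arginine transport with Pam3 in the presence of TGFβ (1.6).

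For each tested member, the genes with the most similar pattern were taken as the 3 highest Pearson correlations of log2 CPM over the 12 libraries. These libraries form 4 groups, so the values mostly describe group means. Acod1 was closest to Abtb2 (r = 0.995), the antiviral GTPase gene Mx1 (0.995) and Slc7a8 (0.994). Ass1 was closest to Socs3 (0.996), a feedback inhibitor of cytokine signalling, Ms4a6c (0.995) and Prkcd (0.995). Gch1 was closest to Trafd1 (0.993), Sap30 (0.993) and Tap1 (0.993), the peptide transporter of antigen presentation. Slc7a2 was closest to Ell2 (0.996), Enpp4 (0.995) and Chka (0.995). Asl had less similar neighbours (Aldoart1 at 0.867, Dda1 at 0.851 and C2 at 0.847). With Spearman correlation 1 of the 3 names was shared for each of Acod1 and Asl and 0 for the other tested members, so the names depend on the measure.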

How the data were processed

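RNA of 12 FLAM libraries was sequenced. Per the submitters' processing notes, reads were mapped to GRCm39 with Bowtie2 2.4.1 and counted with featureCounts of Subread 2.0.0, and DESeq2 1.36.0 was used. The annotation and strand setting are not given in the sources used here. The deposited table holds whole read counts per gene symbol. The authors' normalized values were not used here.

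Genes were kept with filterByExpr (minimum count 10), which left 14749. Raw counts were TMM-scaled and tested with the quasi-likelihood test of edgeR 4.0.16 (R 4.3.3, robust) on the 12 libraries with 4 group means. The threshold was 0.05 on p-values adjusted by Benjamini and Hochberg across the 14749 genes. The SE is the log2 fold change divided by the square root of F. The procedure was tested on simulated data. Named genes were the members, up to 2 called genes of each list and contrast with the largest change (some not printed), and 3 similar genes per member (log2 CPM, prior count 2). The other succinate dehydrogenase genes, Ddah2 and the other synthases were named after their values were seen. Members and lists were chosen with earlier results of these data known. The rule held 8 genes, and 2 of them and some pathway genes are not reported here. Positions and lengths come from GENCODE M39 (GRCm39). Alternatives were other scalings, DESeq2 1.42.0, other filters, fits of the libraries compared, a replicate block and leaving out each library. The mitochondrial classes (divided at 0.2%) were added after the data were seen. Counts carry no molecular identifiers, so intervals cover counting error only. All 12 replicate pairs exceeded the noise of sampling, with chi-square values per df from 9.99 to 220. Pairs within a mitochondrial class had values from 9.99 to 28, and pairs across the classes from 133 to 220.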

Additional observations from a re-analysis of the deposited data

Results flagged for a closer look

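TGFβ changed the size of the Pam3 response for 4 of the 5 tested genes, by the interaction test of edgeR, where 15.9% of all genes were called and 10.3% called higher. The difference was 5.41 for Acod1, 1.72 for Ass1, 1.21 for Gch1 and 0.62 for Slc7a2 on the log2 scale, each toward a larger response with TGFβ. In the 7 libraries of low mitochondrial share those of Acod1 (5.05, edgeR adjusted p 0.0605) and Slc7a2 (0.42, edgeR adjusted p 0.0548) were not called. The level after Pam3 was also called higher with TGFβ for Acod1, Gch1 and Slc7a2, and was not called different for Ass1 (0.12, edgeR adjusted p 0.329). For Acod1 that difference was 1.2 in the 7 libraries of low mitochondrial share and was not called there, as given above.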

How the results depend on the processing

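With each library left out, the number of members called was 4 for Pam3 without TGFβ and ran from 4 to 5 for Pam3 with TGFβ and for the interaction, and that of pathway genes from 5 to 11 for Pam3 without TGFβ and from 4 to 6 for the interaction. The fit of the 6 libraries compared called 6 pathway genes there. In the 7 libraries of low mitochondrial share, which have fewer samples, the calls for Pam3 without TGFβ were 1216 genes and 2 pathway genes, for Pam3 with TGFβ 3368 genes and 6 pathway genes, for TGFβ after Pam3 14 pathway genes, and for the interaction 796 genes, 2 members and 1 pathway gene. The 5 libraries of high share called 1397 genes and 3 pathway genes for Pam3 without TGFβ. Values near 0 changed sign. The Pam3 response of Asl without TGFβ was -0.09 to 0.04 with a library left out and 0.15 in the high class, its TGFβ effect at rest was 0.1 in the high class, and that of Gch1 was -0.19 to 0.02 with a library left out. The cause was not tested. Upper-quartile scaling split the calls of Pam3 with TGFβ into 2477 higher and 3489 lower, against 3008 and 2670, and those of the interaction into 1255 and 1097, against 1516 and 836. Same-numbered libraries share only a number: their deviations correlated at -0.17 to 0.3, 6 of 18 pairs were over 0.1, and 5 of 12 libraries correlated best with their own number. With the replicate block, the members called stayed at 4, 5, 3, 3 and 4 over the contrasts and the interaction was called for 2393 genes. Nos2 rests on at most 14 counts per library, and its exact permutation p of 0.1 is the smallest that 3 against 3 libraries allow.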
